A study of Homo sapiens with 16 samples.

Results

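The nuclear-encoded subunits of respiratory complex I were followed across the 4 treatment groups of a HepaRG experiment. They were taken by name as the protein-coding genes of the deposited count table called NDUF plus A, B, C, S or V and a number, together with NDUFAB1. This gave 38 genes, of 19951 protein-coding genes and 58735 genes in the table, and all 38 passed the filter on low counts. No measured value entered the name rule, but the members were chosen with earlier results of these data known.

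Complex I is the proton-pumping NADH dehydrogenase at the start of the mitochondrial respiratory chain. Its matrix arm oxidises NADH made by fatty acid oxidation and the citric acid cycle and passes the electrons through flavin and iron-sulfur clusters to ubiquinone, and its membrane arm pumps protons. The enzyme has 14 core subunits, 7 of them encoded in the nucleus and 7 in mitochondrial DNA, and a shell of accessory subunits that are all nuclear-encoded. One gene that the name rule takes in, NDUFA4, encodes a protein that is a subunit of cytochrome c oxidase rather than of complex I.

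HepaRG is a human liver cell line that, after differentiation in DMSO, holds hepatocyte-like and cholangiocyte-like cells. The combination group received 30 nM formoterol, a beta-adrenergic agonist, together with 0.25 mM palmitic and 0.5 mM oleic acid. The fatty acid group received the same fatty acids alone, the formoterol group the same formoterol alone, and the control group the vehicle (1% BSA). All cells were kept in Williams E medium with serum, insulin, triamcinolone acetonide and 2% DMSO, and treatment lasted 3 days with daily changes of medium. The fatty acids were given as sodium salts emulsified in PBS, and the sources used here do not say whether the treated groups also received BSA. Each group had 4 libraries of poly-A RNA, 16 in all. The 4 libraries of a group are called independent, without a word on whether they came from separate cultures; the p-values below reflect the spread among these libraries and no more.

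RefSeq promoter sequences of GRCh38.p14, from 250 bases before to 50 after a gene's start, were at hand for 32 of the 38 genes. They were searched on both strands for the recognition letters of factors known as regulators of respiratory chain genes or of the cAMP response. The site of NRF1 (GCGCATGC, read as GCATGCGC on the other strand), the nuclear respiratory factor, was present in the promoters of 6 of the 32 genes (18.75%), against 3.68% of 27305 genes with a promoter. These were NDUFA5, NDUFA6, NDUFA8, NDUFB4, NDUFS6 and NDUFS7. The full cAMP response element (TGACGTCA, the same on both strands) was present in NDUFA10 and NDUFB2, 6.25% of the genes against 2.25% of all. The YY1 site (AAGATGGCG, CGCCATCTT on the other strand) was present in 6 genes (18.75%, against 2.14% of all), in each case 10 to 25 bases after the start. The estrogen-related receptor site (TCAAGGTCA or TGACCTTGA) and the PPAR direct repeat were present in none of the 32, against 0.432% and 0.0293% of all genes. In NDUFA8 and NDUFB4 the NRF1 letters of both strands overlap in 1 stretch. The following 30-base stretches are shown because their genes have an NRF1 site (NDUFA5, NDUFA6, NDUFA8 and NDUFS6) or a cAMP element (NDUFA10) and rose or fell in a comparison below, each 5′ to 3′ on the gene's own strand with the site in capitals.
NDUFA5, chr7:123557958-123557987, minus strand: gtatgcccatcGCGCATGCgtcaatttttc
NDUFA6, chr22:42090920-42090949, minus strand: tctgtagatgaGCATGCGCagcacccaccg
NDUFA8, chr9:122159765-122159794, minus strand: tgttgccggatGCGCATGCgcaggcgccgt
NDUFS6, chr5:1801350-1801379, plus strand: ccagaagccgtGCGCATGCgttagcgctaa
NDUFA10, chr2:240025372-240025401, minus strand: caccccggccgTGACGTCAcggcagcgcgc
The site starts 158 bases before the RefSeq start in NDUFA5, 166 in NDUFA6, 4 in NDUFA8, 46 in NDUFS6 and 48 in NDUFA10. All the 30-base stretches shown but that of NDUFS6 also touch an untranslated region of a GENCODE 29 transcript of the same gene. The stretch of NDUFS6 touches one of MRPL36. Whether the site itself does so was not examined. A match says only that these letters occur in the window.

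Depth was 32471299 to 65673126 counts per library, and formoterol replicate 4 was the deepest. The 38 genes took 0.159% to 0.237% of a library's counts. Levels below are in CPM, counts scaled to library size with TMM factors, given for replicates 1 to 4 in that order, and changes are log2 fold changes ± SE from edgeR's quasi-likelihood fit. A gene is said to have risen or fallen where its p, adjusted by Benjamini-Hochberg over all 18121 genes tested, was under 0.05. 3 libraries stood apart in a way that touches these genes. Formoterol replicate 4 was the highest of its group in 31 of the 38 genes, control replicate 2 the lowest of its group in 27, and combination replicate 2 the lowest of its group in 26. Other genes with few annotated exon bases moved with them. They were the 665 genes outside the 38 with 1000 to under 2000 exon bases and a mean log2 CPM above 2. Their median stood 0.29 log2 units above the 16-library mean in formoterol replicate 4, and 0.15 and 0.22 below it in control replicate 2 and combination replicate 2. The hepatocyte markers, of which all 10 were measured, summed to 17100 CPM in combination replicate 2 and to 42630 to 47808 CPM in the other 3 combination libraries. EPCAM of the cholangiocyte list had 0 counts in all 16 libraries, as had COL1A2 of the stellate and CDH5 of the endothelial list.

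**Figure D1:**
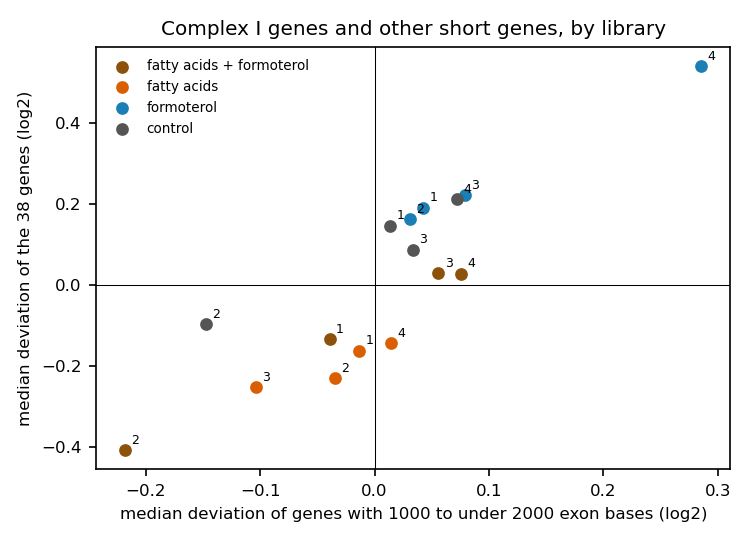
Median deviation of the 38 genes (vertical axis, log2 units from each gene's 16-library mean) against that of 665 other genes (horizontal axis), 1 point per library, numbered by replicate. The 665 have 1000 to under 2000 exon bases and a mean log2 CPM above 2. Formoterol replicate 4 lies at the upper right and combination replicate 2 at the lower left; all 4 fatty acid libraries lie below 0 on the vertical axis.

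Per kilobase of exon sequence, the 38 control levels covered a wide range. The length is that of all annotated exons of a gene together, not of a transcript, from 531 bases for NDUFB7 to 12268 for NDUFS1. The order of the genes depends on it: NDUFA5, at 231 CPM in control, has 9851 exon bases, of which 447 are coding. NDUFS5, a small membrane-arm subunit, was highest at 90.0 ± 25.0 CPM per kb (SD, n = 4). NDUFA4 followed at 59.4 ± 10.2 CPM per kb, and NDUFA8, which faces the intermembrane space, at 51.7 ± 6.95 CPM per kb. The lowest were NDUFV2, a core iron-sulfur subunit, at 0.184 ± 0.0818 CPM per kb and NDUFA7, an accessory subunit of the matrix arm, at 0.233 ± 0.148 CPM per kb. The neighbours NDUFS5 and NDUFA4, NDUFA4 and NDUFA8, and NDUFA7 and NDUFV2 each differed by less than the sum of their SDs.

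Some of the genes have coding sequence that another gene also holds in the annotation. In 7 of the 38 genes, between 36.9% and 85.2% of the coding bases lie in an exon of another gene on the same strand. The 7 are NDUFA11, NDUFA13, NDUFA9, NDUFC2, NDUFA7, NDUFV2 and NDUFB8, and in the other 31 that share was 0%. In 4 of the 31, NDUFS7, NDUFB2, NDUFA2 and NDUFB9, between 10.9% and 48.45% of the coding bases lie in an exon of a gene on the opposite strand, and reads of such a pair cannot be told apart unless the counting used strand. In others only exon bases outside the coding sequence overlap a gene on the opposite strand. Among them are NDUFB11 (44.85% of its exon bases, with RBM10), NDUFA1 (44.5%, with RNF113A) and NDUFB3 (19.8%, with FAM126B). Of the 7 genes that share coding bases on the same strand, 6 had the 6 lowest total counts of all 38 genes, 185 for NDUFA7, 272 for NDUFV2, 805 for NDUFA13, 1886 for NDUFB8, 1952 for NDUFA11 and 2594 for NDUFA9. The sources used here do not say how the authors' counting treated reads that fall in 2 genes, so the levels of these 7 genes are uncertain. NDUFC2 (6724 counts) shares its coding exons with NDUFC2-KCTD14, which had 0 counts, and its last bases with THRSP on the opposite strand, whose counts were 0.849 times its own. NDUFS1 touches EEF1B2, whose counts were 0.384 times its own and whose value with fatty acids, against control, was 0.12 ± 0.12. NDUFA5 has 12 named pseudogenes, with 380 counts in all.

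**Figure D2:**
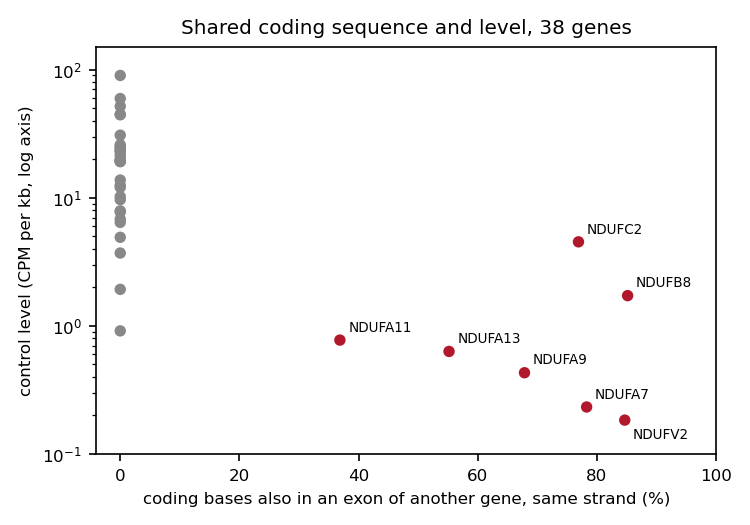
Control level of each of the 38 genes (vertical axis, CPM per kb of exon sequence, log axis) against the share of its coding bases that lie in an exon of another gene on the same strand (horizontal axis, percent). The 7 genes with a share above 0% are named, and 6 of them are the 6 lowest in total counts.

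Fatty acids alone, set against control, ask what a lipid load does to these transcripts. Of the 38 genes 7 fell and 0 rose, where 16.5% of all genes tested changed, 7.62% downward and 8.93% upward. More genes shared the sign than passed the test: 37 of the 38 log2 fold changes lay below 0, against 49.0% of all genes, and their median was −0.29, against 0.01 for all genes. In 12 of the 38 every fatty acid library lay below every control library, against 9.7% of all genes. Among the 31 genes with no coding bases shared with a gene on the same strand all 31 values lay below 0 and 7 fell. Bulk RNA cannot tell fewer cells of a type from less RNA per cell. The hepatocyte markers summed to 43380 to 49437 CPM with fatty acids, against 21207 to 32496 CPM in control, where 5 of the 10 genes rose, 1 fell and 3 of the 10 values lay below 0. The cholangiocyte markers, 3 of 5 measured, did not move as one: their sum was 178 to 211 CPM with fatty acids, against 103 to 111 CPM in control, yet only KRT19 rose, SOX9 fell and the median of the 3 changes was −0.51. The proliferation markers, 5 of 5 measured, all rose, with sums of 219.8 to 306 CPM with fatty acids, against 108 to 145 CPM in control. The stellate markers, 6 of 7 measured, summed to 757 to 886 CPM with fatty acids, against 639 to 803 CPM in control (1 rose and 1 fell), and the endothelial markers, 2 of 4 measured, to 158 to 171 CPM, against 117 to 133 CPM (1 rose). The part of these lists in the falls was not tested.

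In the NADH-oxidising module both well-measured core genes fell. NDUFV1 (ENSG00000167792, chromosome 11, 67605653 to 67612554), which binds the flavin that takes electrons from NADH, had 125, 125, 125 and 133 CPM with fatty acids, against 156, 146, 149.9 and 171 CPM in control. Every fatty acid library was below every control library, and the change was −0.30 ± 0.07 (edgeR adjusted p = 0.00538). NDUFS1 (ENSG00000023228, chromosome 2, 206114817 to 206159603), the core subunit that carries iron-sulfur clusters next to it, had 226, 221, 229 and 217 CPM with fatty acids, against 268, 272, 249 and 256 CPM in control. These groups did not overlap either, and the change was −0.23 ± 0.05 (edgeR adjusted p = 0.00489). NDUFV2, the third gene of this module, had 12 to 30 counts with fatty acids and 10 to 26 in control, and its value was 0.16 ± 0.52 (edgeR adjusted p = 0.885).

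In the quinone-reducing module the core subunits NDUFS3, NDUFS7 and NDUFS8 were without a call. NDUFS3 (ENSG00000213619, chromosome 11, 47565336 to 47584562) had 35.4, 37.5, 36.7 and 39.1 CPM with fatty acids, against 40.9, 44.8, 41.1 and 50.0 CPM in control. The fatty acid libraries were the lower ones, and the value was −0.25 ± 0.09 (edgeR adjusted p = 0.0532, 95% interval −0.43 to −0.07). CELF1, which overlaps NDUFS3, had a value of 0.07 ± 0.06. NDUFS7 and NDUFS8 had values of −0.24 and −0.29.

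Among the accessory subunits 4 of 30 fell. NDUFB5, an accessory subunit of the outer membrane arm (ENSG00000136521, chromosome 3, 179604690 to 179627647), had 112, 115, 112 and 109.9 CPM with fatty acids, against 139.9, 131, 134 and 147 CPM in control, a change of −0.30 ± 0.08 (edgeR adjusted p = 0.0115) with no overlap. NDUFA6 (ENSG00000184983, chromosome 22, 42085525 to 42090955), a matrix-arm subunit that binds the acyl carrier protein NDUFAB1, had 50.1, 48.0, 44.9 and 48.3 CPM with fatty acids, against 70.7, 53.1, 65.5 and 64.4 CPM in control, a change of −0.41 ± 0.11 (edgeR adjusted p = 0.0142). The control values of NDUFA6 spread more, with replicate 2 the lowest, yet stayed above every fatty acid library. NDUFV3, an accessory subunit beside the flavin, changed by −0.23 ± 0.07 and NDUFA8 by −0.47 ± 0.14 (edgeR adjusted p = 0.0207 and 0.0271). NDUFAB1 itself had a value of −0.33 ± 0.15 without a call (edgeR adjusted p = 0.143).

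NDUFA4 (ENSG00000189043, chromosome 7, 10931951 to 10940256), the cytochrome c oxidase subunit, had 151, 136, 138 and 154 CPM with fatty acids, against 226, 158, 224 and 237 CPM in control. All 4 fatty acid libraries were lower, control replicate 2 came nearest to them, and the change was −0.55 ± 0.16 (edgeR adjusted p = 0.0191). Of the 37 genes other than NDUFA4, 6 fell with fatty acids and 0 rose, where 7.62% of all genes fell and 8.93% rose. NDUFC2 (ENSG00000151366, chromosome 11, 78068304 to 78080219) overlapped between the groups, with 12.1, 11.1, 11.1 and 10.8 CPM with fatty acids, against 13.2, 12.9, 11.3 and 10.6 CPM in control, and a value of −0.09 ± 0.11 (edgeR adjusted p = 0.634).

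The count of 7 depended on single libraries, while the sign did not. It was 3 without control replicate 1, 4 without control replicate 4 or without fatty acid replicate 3, 13 without control replicate 2, 14 without combination replicate 2 and 20 without both formoterol replicate 4 and combination replicate 2. Over all settings tried 36 to 38 of the genes were tested, and at most 2 of their values lay above 0. The calls of NDUFS1, NDUFV1 and NDUFB5 held in each of the 25 alternatives listed for them, 16 of which leave out 1 library.

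**Figure D3:**
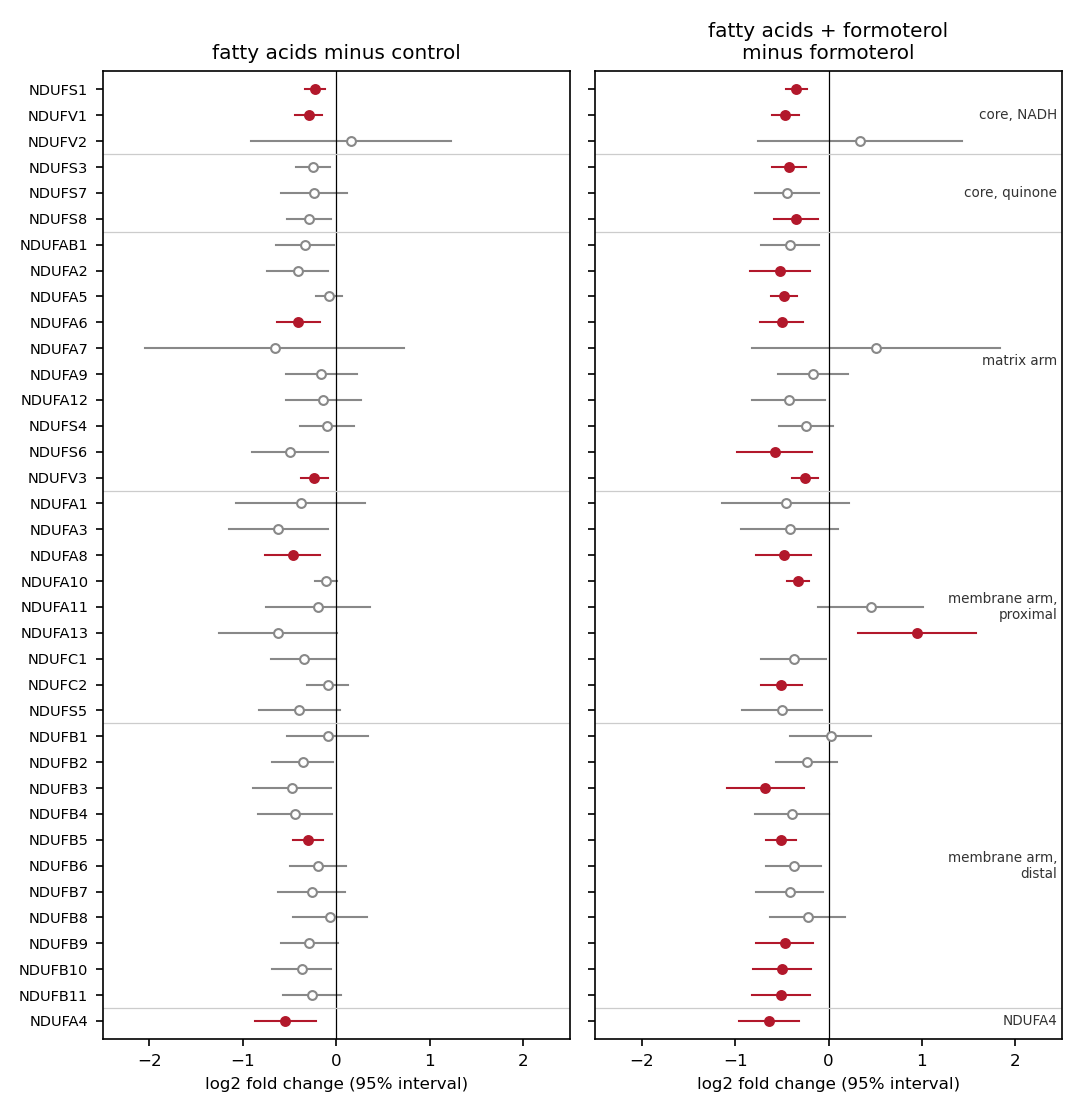
Log2 fold change of 37 of the genes (points, with 95% intervals) for fatty acids minus control and for the combination minus formoterol, grouped by place in the enzyme; filled red points passed the adjusted p of 0.05. Nearly all points lie left of 0 in both panels, and NDUFV2, NDUFA7 and NDUFA13 have wide intervals.

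**Figure D4:**
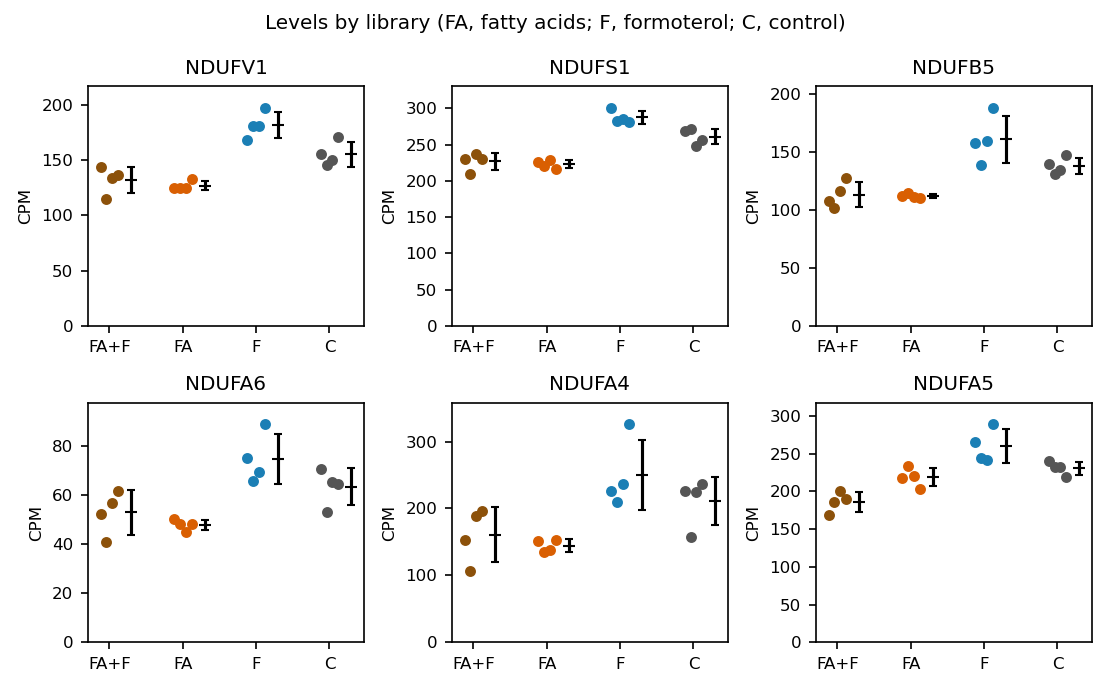
CPM of 6 genes in each of the 4 libraries of a group (points in replicate order, bars the mean ± SD), with the combination (FA+F), fatty acids (FA), formoterol (F) and control (C) from left to right. In NDUFV1, NDUFS1, NDUFB5, NDUFA6 and NDUFA4 the fatty acid libraries lie below the control libraries, while for NDUFA5 they overlap and the combination alone lies lower.

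The same fatty acids given on top of formoterol, the combination set against formoterol alone, have group means that use none of the libraries of the first comparison, although the spread behind both tests was estimated over all 16 libraries in 1 fit. Here 19 of the 38 genes fell and 1 rose, where 18.4% of all genes changed, 8.97% downward and 9.48% upward. The median was −0.41, 33 of the 38 values lay below 0, and in 15 genes every combination library lay below every formoterol library, against 11.2% of all genes; in 0 did every one lie above, against 9.98%. All 7 genes that fell with fatty acids alone fell here too, 100% of the 7 and 36.8% of the 19. Over all genes tested 633 fell in both, 45.9% of the 1380 that fell with fatty acids alone and 39.0% of the 1625 that fell here. The hepatocyte markers summed to 17100 to 47808 CPM in the combination, against 49862 to 54593 CPM with formoterol, and 5 of the 10 fell. The cholangiocyte markers summed to 142 to 161 CPM in the combination, against 102 to 105 CPM with formoterol, where KRT19 rose and SOX9 fell. All 5 proliferation markers rose, with sums of 355 to 596 CPM in the combination, against 159 to 179 CPM with formoterol. The stellate markers summed to 606 to 765 CPM in the combination, against 469 to 512 CPM with formoterol (2 of 6 rose), and the endothelial markers to 52.5 to 107 CPM, against 38.9 to 50.5 CPM (2 of 2 rose). The part of these lists in the falls was not tested.

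NDUFA5, an accessory subunit of the matrix arm (ENSG00000128609, chromosome 7, 123536997 to 123558255), had the smallest p. It had 168, 186, 200.1 and 190.5 CPM in the combination, against 266, 244, 241 and 289 CPM with formoterol, with no overlap and a change of −0.48 ± 0.07 (edgeR adjusted p = 4.13e-05). NDUFV1 had 144, 115, 134 and 136 CPM in the combination, against 169, 181, 181 and 198 CPM with formoterol, and NDUFS1 229.7, 210.2, 237 and 231 CPM, against 301, 283, 285 and 282 CPM. Both flavin-module genes were lower in every combination library, with changes of −0.46 ± 0.07 and −0.34 ± 0.05 (edgeR adjusted p = 9.39e-05 and 0.000125).

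In the quinone module NDUFS3 had 42.2, 37.1, 39.9 and 36.6 CPM in the combination, against 47.4, 51.5, 47.2 and 62.0 CPM with formoterol, and every combination library was lower. NDUFS3 and NDUFS8 changed by −0.42 ± 0.09 and −0.35 ± 0.11 (edgeR adjusted p = 0.00178 and 0.0346), while NDUFS7, at −0.44 ± 0.17, did not pass (edgeR adjusted p = 0.0697).

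In the membrane arm NDUFB5 had 108, 102, 116 and 127 CPM in the combination, against 158, 138, 159 and 188 CPM with formoterol, and NDUFA10, a subunit related to nucleoside kinases (ENSG00000130414, chromosome 2, 239892450 to 240025402), 107, 99.5, 115 and 107 CPM, against 134, 133, 136 and 136 CPM. Their changes were −0.51 ± 0.08 and −0.33 ± 0.06 (edgeR adjusted p = 0.000128 and 0.000298), and neither gene's groups overlapped. NDUFA4 had 153, 106, 188 and 196 CPM in the combination, against 226, 210.3, 237 and 326 CPM with formoterol, where replicate 4 was far above the rest. Its change was −0.64 ± 0.16 (edgeR adjusted p = 0.00663). Of the 37 genes other than NDUFA4, 18 fell and 1 rose, where 8.97% of all genes fell and 9.48% rose. Further falls, those of NDUFA2, NDUFA6, NDUFA8, NDUFB3, NDUFB9, NDUFB10, NDUFB11, NDUFC2, NDUFS6 and NDUFV3, ranged from −0.68 for NDUFB3 to −0.25 for NDUFV3. MTSS1, which overlaps NDUFB9 on the opposite strand and had 1.63 times its counts, also fell, at −0.23 ± 0.07 (edgeR adjusted p = 0.0223). IK, NDUFA6-DT, FAM126B and RBM10, which overlap NDUFA2, NDUFA6, NDUFB3 and NDUFB11, had values of −0.13, 0.46, 0.01 and 0.01 without a call. The part of these neighbours in the falls was not tested.

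NDUFC2 had 9.16, 8.62, 9.58 and 8.88 CPM in the combination, against 11.2, 13.6, 12.8 and 13.9 CPM with formoterol, without overlap, and changed by −0.51 ± 0.11 (edgeR adjusted p = 0.00194). THRSP, the lipogenesis-related gene that ends over the last bases of NDUFC2, was lower too: it averaged 5.00 ± 2.39 CPM in the combination and 17.3 ± 1.98 CPM with formoterol (SD, n = 4 each), a change of −1.79 ± 0.27 (edgeR adjusted p = 7.74e-05). The single rise was that of NDUFA13, an accessory subunit also called GRIM-19, at 1.84, 1.81, 1.40 and 2.03 CPM in the combination, against 0.685, 1.50, 0.773 and 0.724 CPM with formoterol, a change of 0.94 ± 0.30 (edgeR adjusted p = 0.0338). It rests on 57 to 73 counts per combination library, against 24 to 56 per formoterol library. YJEFN3, which overlaps the end of NDUFA13 on the same strand and had 8.15 times its counts, averaged 12.8 ± 4.78 CPM in the combination and 7.74 ± 1.56 CPM with formoterol (SD, n = 4 each), a value of 0.72 ± 0.27 (edgeR adjusted p = 0.0638). The part of either neighbour in these 2 changes was not tested.

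This comparison leaned on the deepest library for its count. Without formoterol replicate 4 the changed genes numbered 10 in place of 20, without combination replicate 1 they numbered 12, and without both formoterol replicate 4 and combination replicate 2 again 10. All 10 without both libraries were falls, among them NDUFA4, NDUFA5, NDUFA6, NDUFA10, NDUFB5, NDUFC2, NDUFS1, NDUFS3 and NDUFV1, whose calls held in all 25 alternatives listed for each. The median over the 38 without both was −0.22. For the 818 other genes under 2000 exon bases with a mean log2 CPM above 2, the median was −0.14 here, against −0.04 for fatty acids minus control.

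Formoterol alone was set against control to ask what beta-adrenergic stimulation does to these genes. Of the 38 genes 3 rose and 0 fell, where 10.3% of all genes changed, 5.76% upward and 4.57% downward, so the share of the 38 that rose (7.89%) was near that of all genes. The median was 0.22, and 32 of the 38 values lay above 0. Every formoterol library lay above every control library in 4 genes and below in 1, against 9.3% and 7.42% of all genes. NDUFA10 had 134, 133, 136 and 136 CPM with formoterol, against 116, 116, 119 and 124 CPM in control, a change of 0.18 ± 0.06 (edgeR adjusted p = 0.0406), and every formoterol library was above every control library. NDUFV1 had 169, 181, 181 and 198 CPM with formoterol, against 156, 146, 149.9 and 171 CPM in control, where formoterol replicate 1 overlapped control replicate 4, and changed by 0.23 ± 0.07 (edgeR adjusted p = 0.0421).

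Without a call, NDUFS1 had 301, 283, 285 and 282 CPM with formoterol, against 268, 272, 249 and 256 CPM in control, with no overlap and a value of 0.14 ± 0.05 (edgeR adjusted p = 0.103). NDUFA4 and NDUFC2 had values of 0.24 ± 0.16 and 0.10 ± 0.10. The hepatocyte markers summed to 49862 to 54593 CPM with formoterol, against 21207 to 32496 CPM in control, and 8 of the 10 rose. The proliferation markers summed to 159 to 179 CPM with formoterol, against 108 to 145 CPM in control (2 of 5 rose), the stellate markers to 469 to 512 CPM, against 639 to 803 CPM (1 of 6 fell), and the endothelial markers to 38.9 to 50.5 CPM, against 117 to 133 CPM (1 of 2 fell). The part of these lists in the rises was not tested.

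These 3 calls depended on single libraries. No gene was called without control replicate 1, 2 or 3 or without formoterol replicate 3 or 4, 1 was called without fatty acid replicate 1 and 6 without combination replicate 2. They also depended on the scaling. With library totals in place of TMM factors the median of all genes moved to −0.14, 20.2% of the changed genes were rises in place of 55.7%, and of the 38 genes 0 rose and 1 fell, NDUFA13. The 38 stood 0.22 above the median of all genes under either scaling. A scaling factor moves all genes of a library nearly alike, so this distance could hardly change and does not bear on the choice of scaling. Library totals moved the median of all genes to 0.14 in the combination minus formoterol, with 81.0% rises among the changed genes in place of 51.4%. Of the 38 genes 14 still fell, NDUFA4 among them.

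Formoterol added to fatty acids, the combination set against fatty acids alone, gave no call among the 38 by edgeR's quasi-likelihood test, with 3 at an unadjusted p under 0.05, where 2.8% of all genes changed, 1.68% upward and 1.12% downward. The median of the 38 was 0.14, against 0.0004 for all genes, and 31 of the values lay above 0 and 7 below. Every combination library lay below every fatty acid library in 2 genes and above in 0, against 5.01% and 4.34% of all genes. DESeq2 called 1 of them. The smallest p belonged to NDUFA5, with 168, 186, 200.1 and 190.5 CPM in the combination, against 218, 233, 220.1 and 204 CPM with fatty acids, and to NDUFC2, with 9.16, 8.62, 9.58 and 8.88 CPM in the combination, against 12.1, 11.1, 11.1 and 10.8 CPM with fatty acids. In both genes every combination library was lower, with values of −0.23 ± 0.07 and −0.31 ± 0.11 (edgeR adjusted p = 0.0678 and 0.134). NDUFA5 passed without formoterol replicate 4. The core genes of the NADH module lay close to 0: NDUFS1 at 0.03 (95% interval −0.09 to 0.14) and NDUFV1 at 0.06 (−0.09 to 0.20). NDUFA4 stood at 0.15, with an interval of −0.17 to 0.48.

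The combination against control shares its controls with 2 comparisons above, so it is given only by its own values. Of the 38 genes 6 fell and 0 rose, where 14.3% of all genes changed, 6.68% downward and 7.58% upward, with a median of −0.18. In 7 of the 38 every combination library lay below every control library, against 8.29% of all genes, and in 0 above, against 8%. The falls were those of NDUFA5 at −0.31 ± 0.07, NDUFC2 at −0.41 ± 0.11, NDUFS1 at −0.20 ± 0.05, NDUFB5 at −0.29 ± 0.08, NDUFV3 at −0.23 ± 0.07 and NDUFV1 at −0.24 ± 0.07 (edgeR adjusted p = 0.00271, 0.0119, 0.0124, 0.0178, 0.0237 and 0.0257, in that order). The 6 genes that fell were among those 7. NDUFA5 averaged 186 ± 13.2 CPM in the combination and 231 ± 8.67 CPM in control (SD, n = 4 each). NDUFV3 had 43.1, 42.6, 41.2 and 43.6 CPM in the combination, against 51.7, 46.9, 50.3 and 51.4 CPM in control, a narrow spread in both groups. NDUFA4 had a value of −0.39 without a call. Without control replicate 4 the number of falls was 3. All 5 proliferation markers rose, with sums of 355 to 596 CPM in the combination, against 108 to 145 CPM in control. Of the hepatocyte markers 4 rose and 2 fell, of the 3 cholangiocyte markers 1 rose and 1 fell, and of the 2 endothelial markers 1 fell, with sums of 52.5 to 107 CPM in the combination, against 117 to 133 CPM in control. The part of these lists in the falls was not tested.

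Whether the effect of formoterol differed with and without fatty acids was tested as the interaction: the difference between the combination and fatty acids, reduced by the difference between formoterol and control. Of the 38 genes 2 passed, 1 in each direction, where 5.5% of all genes did, 2.12% above 0 and 3.38% below. With library totals in place of TMM factors the median of all genes moved to 0.17, and 74.6% of all genes called were above 0 in place of 38.5%. The NDUFA5 term no longer passed, at an edgeR adjusted p of 0.128. Relative to the median of all genes the 38 stood 0.11 lower with TMM and 0.13 lower with totals, a distance that a change of scaling could hardly alter. The median term of the 38, −0.10, turned to 0.07 without formoterol replicate 4 and combination replicate 2. For NDUFA5 the term was −0.40 ± 0.09 (edgeR adjusted p = 0.0172). Formoterol minus control was 0.17 in this gene, uncalled at an edgeR adjusted p of 0.113 but with no overlap (266, 244, 241 and 289 CPM with formoterol, against 241, 232, 232 and 219 CPM in control), and the combination minus fatty acids was −0.23. The NDUFA5 term passed without each of the 16 libraries in turn. For NDUFA13 the term was 1.57 ± 0.43 (edgeR adjusted p = 0.0349), again at 24 to 73 counts per library, and it passed in 7 of 16 such fits. NDUFA13 had 1.84, 1.81, 1.40 and 2.03 CPM in the combination, against 0.820, 1.29, 0.770 and 1.54 CPM with fatty acids, and 0.685, 1.50, 0.773 and 0.724 CPM with formoterol, against 1.69, 1.77, 1.82 and 1.56 CPM in control. Without fatty acids every formoterol library was below every control library, while with them the groups overlapped. The overlapping gene YJEFN3 had a term of 1.09 ± 0.37 (edgeR adjusted p = 0.0926). NDUFC2, with −0.41 ± 0.15 (edgeR adjusted p = 0.109), did not pass, while its neighbour THRSP did at −1.92 ± 0.37 (edgeR adjusted p = 0.00560). Of the 10 hepatocyte markers 8 passed, all below 0, and their part in these terms was not tested.

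Summed over the 38 genes, the level was 1654, 1403, 1820.3 and 1829 CPM in the combination, 1662, 1599, 1607 and 1651 CPM with fatty acids, 2189, 2074, 2203 and 2618 CPM with formoterol, and 2046, 1766, 1965 and 2074 CPM in control. Every fatty acid library lay below every control library, and every combination library below every formoterol library. The group means were 1677 ± 199.6 CPM in the combination, 1630 ± 31.4 CPM with fatty acids, 2271 ± 238 CPM with formoterol and 1963 ± 139 CPM in control (SD, n = 4 each). The sum weighs genes by their counts, and NDUFS1, NDUFA5 and NDUFA4 had the highest counts of the 38.

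**Figure D5:**
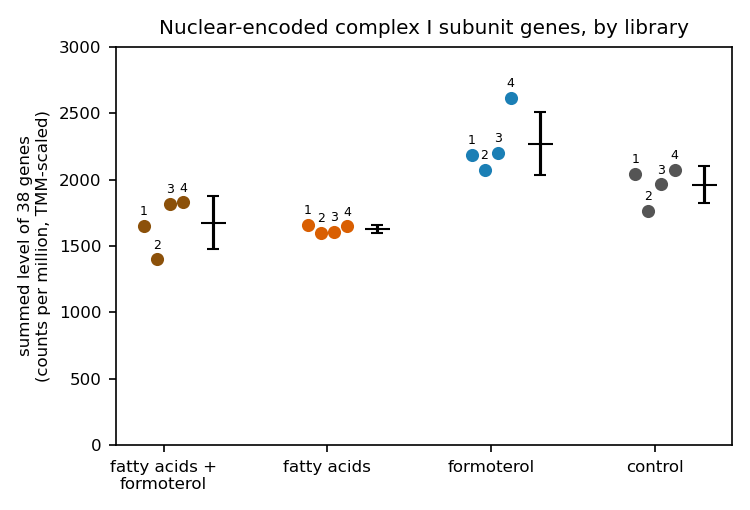
Summed CPM of the 38 genes in each library (points, numbered by replicate) with the mean ± SD of each group. All 4 fatty acid libraries lie below the 4 control libraries, combination replicate 2 is the lowest of the 16 at 1403 CPM, and formoterol replicate 4 the highest at 2618 CPM.

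The 7 core subunits encoded in mitochondrial DNA were read from the same libraries. In poly-A RNA they took far more counts than the nuclear ones, summing to 10729 to 15829 CPM in the combination, 13464 to 15195 CPM with fatty acids, 18050.0 to 23486 CPM with formoterol and 17014 to 19761 CPM in control. With fatty acids, set against control, 5 of the 7 fell, where 7.62% of all genes did. These were MT-ND5 at −0.43, MT-ND4L at −0.36, MT-ND4 at −0.37, MT-ND2 at −0.37 and MT-ND1 at −0.39. MT-ND6 and MT-ND3 had values of −0.35 and −0.50 (edgeR adjusted p = 0.0723 and 0.288). In the combination, set against formoterol, 6 of the 7 fell, where 8.97% of all genes did, and MT-ND3 had a value of −0.57 without a call. MT-ND5, a proton-pumping subunit at the far end of the membrane arm, had 3922, 2934, 3967 and 4381 CPM in the combination, against 5401, 6122, 5533 and 6331 CPM with formoterol, a change of −0.62 ± 0.09 (edgeR adjusted p = 3.75e-05). For formoterol minus control none of the 7 passed edgeR's test, with 2 at an unadjusted p under 0.05 and MT-ND6 at 0.35. For the combination minus fatty acids none passed either, with 0 at an unadjusted p under 0.05.

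The 18 assembly factors build the enzyme without staying in it. With fatty acids, against control, 4 fell and 0 rose, where 7.62% of all genes fell. They were led by TIMMDC1 at −0.33 ± 0.07, NDUFAF4 at −0.57 ± 0.12 and NDUFAF1 at −0.33 ± 0.09 (edgeR adjusted p = 0.00200, 0.00210 and 0.0107). NDUFAF4 averaged 17.7 ± 1.81 CPM with fatty acids and 26.3 ± 2.78 CPM in control (SD, n = 4 each). In the combination, against formoterol, 6 fell and 0 rose, where 8.97% of all genes fell. Among the 6 were ECSIT at −0.60 ± 0.09 and FOXRED1 at −0.36 ± 0.07 (edgeR adjusted p = 9.58e-05 and 0.000546). Without formoterol replicate 4 and combination replicate 2 the number of falls was 3. In the combination against control 4 fell, where 6.68% of all genes did, ECSIT again with the smallest p at −0.51. Formoterol alone raised FOXRED1 and NDUFAF1, by 0.25 and 0.27, where 5.76% of all genes rose.

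The other respiratory complexes were read from lists of their nuclear subunits. With fatty acids, against control, 0 of 4 complex II, 3 of 9 complex III, 2 of 10 measured complex IV and 6 of 17 complex V genes fell, and none of these genes rose. Of all genes tested 7.62% fell in that comparison, 8.97% fell in the combination against formoterol and 5.76% rose with formoterol against control. ATP5F1B, the catalytic beta subunit of ATP synthase, averaged 869 ± 22.5 CPM with fatty acids and 1149 ± 44.3 CPM in control (SD, n = 4 each), a change of −0.40 ± 0.06 (edgeR adjusted p = 3.35e-05). In the combination, against formoterol, 4, 5, 4 and 9 genes of complexes II, III, IV and V fell and none rose, led by SDHA at −0.42, UQCRFS1 at −0.40, COX4I1 at −0.46 and ATP5F1B at −0.53. Without formoterol replicate 4 and combination replicate 2 the numbers were 4, 2, 1 and 8. Formoterol, against control, raised 2, 1, 0 and 3 of them, SDHA by 0.30 and ATP5F1B by 0.24 among them, and 0 with library totals in place of TMM. For the combination minus fatty acids none of these genes passed edgeR's test, with 0, 0, 1 and 2 at an unadjusted p under 0.05. Differences between the complexes were not tested.

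Among 8 genes for regulators of respiratory chain transcription, 2 fell with fatty acids and 6 were without a call. PPARGC1A, the coactivator PGC-1 alpha, had 66.3, 55.6, 66.2 and 57.8 CPM with fatty acids, against 113, 103, 102 and 98.8 CPM in control, a change of −0.76 ± 0.07 (edgeR adjusted p = 1.03e-07). ESRRA, the estrogen-related receptor alpha that it coactivates, had 44.0, 40.0, 42.4 and 45.0 CPM with fatty acids, against 70.7, 67.4, 65.0 and 78.4 CPM in control, a change of −0.72 ± 0.08 (edgeR adjusted p = 1.82e-06). In the combination, against formoterol, PPARGC1A had 63.8, 73.7, 72.2 and 73.5 CPM, against 117, 120.1, 117 and 112 CPM with formoterol, and both genes fell again, at −0.72 ± 0.07 and −0.40 ± 0.08 (edgeR adjusted p = 4.24e-07 and 0.00117). ESRRA was the 1 regulator that rose when formoterol was added to fatty acids, at 0.31 ± 0.08 (edgeR adjusted p = 0.0337). NRF1 and YY1 themselves stayed without a call in all 6 tests, and NRF1 was at 0.22 with fatty acids, against control. Whether these regulators act on the complex I genes here was not tested.

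NDUFA4L2, a paralog of NDUFA4 known from cells short of oxygen, was barely counted. It had 0.817, 0.320, 0.123 and 0.724 CPM in the combination, 0, 0.361, 0.414 and 0.632 CPM with fatty acids, 0.114, 0.509, 0.901 and 0.505 CPM with formoterol and 0.149, 0, 0.140 and 0.0559 CPM in control. None of its tests passed, and its smallest adjusted p was 0.0781 in edgeR, for the combination against control.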

How the data were processed

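Raw counts per gene from 16 poly-A RNA-seq libraries were analysed as deposited by the authors. Per the submitters' processing notes, reads were aligned with HISAT2 2.0.5 and DESeq2 was used, and the notes name the mouse build mm39. All 58735 gene identifiers in the table are human, however, and names, positions and lengths match GENCODE 29 on GRCh38, which is used here for coordinates. Neither the counting program nor its strand setting is given in the sources used here.

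Genes were kept by edgeR's filterByExpr (18121 genes, 99.9% of counts), scaled by TMM and fitted over all 16 libraries with 4 group means by edgeR 4.0.16's quasi-likelihood test in R 4.3.3, in 6 comparisons, with Benjamini-Hochberg adjustment over all genes tested at 0.05. CPM values use TMM library sizes, and deviations a prior count of 2. Sums and motif searches were made in Python 3.11.15 with pandas 2.3.3, and scripts were tested on simulated data. Depth was 32471299 to 65673126 counts per library. Both the counts of a gene and its spread between libraries limit the precision of its values. NDUFA4, with 116362 counts in all, had an SD within groups of 0.284 log2 units, and NDUFC2, with 6724, one of 0.113. One of the 38 genes is in all counts, medians and sums, but is not reported here by itself. The members and gene lists were chosen with earlier results of these data known. Values in every library are given, per comparison, for up to 5 members per direction with the smallest p among those called (the 2 with the smallest p where none was), and always for NDUFV1, NDUFS1, NDUFC2 and NDUFA4; from other lists up to 3 called genes each, with NDUFA4L2, PPARGC1A and the mitochondrially encoded subunits always. NDUFAF4, NDUFS7, NRF1 and YY1 were named after their values were seen where they fall outside this rule. Alternatives were other scalings and filters, DESeq2 1.42.0, fits on fewer groups or genes, a replicate block and leaving out each library. Leaving out formoterol replicate 4 with combination replicate 2, and removing a gene-length trend per library, were added after seeing the data.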

Additional observations from a re-analysis of the deposited data

Results flagged for a closer look

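Of 152 groups of 4 libraries examined (37 of the genes and the summed level of the 38 in 4 groups), 9 held a library far from the other 3 by Dixon's 95% criterion, where chance gives about 1 in 20. Control replicate 2 was low for NDUFA4 at 158 CPM (the others 224 to 237 CPM), for NDUFAB1 at 23.1 CPM (32.7 to 33.4 CPM) and for NDUFS5 at 28.9 CPM (53.7 to 57.4 CPM). Formoterol replicate 4 was high for NDUFB9 at 48.3 CPM (34.4 to 35.5 CPM) and for NDUFC1 at 19.2 CPM (11.7 to 12.9 CPM). The same libraries had low or high values for other genes with few exon bases, and the part of that in these gaps was not tested. The remaining gaps were NDUFA13 in formoterol replicate 2 at 1.50 CPM (0.685 to 0.773 CPM), NDUFB1 in control replicate 4 at 9.17 CPM (8.10 to 8.14 CPM), NDUFB10 in fatty acid replicate 3 at 16.8 CPM (21.7 to 22.4 CPM) and NDUFV1 in fatty acid replicate 4 at 133 CPM (124.6 to 124.9 CPM).

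The response to formoterol differed with and without fatty acids, by a test of the interaction, in NDUFA5 (log2 −0.40) and in NDUFA13 (log2 1.57), 2 of the 38 genes, where 5.5% of all genes passed. The NDUFA5 term did not pass with library totals in place of TMM factors (edgeR adjusted p = 0.128). The NDUFA13 term passed in 7 of the 16 fits that leave out 1 library, rests on 24 to 73 counts per library, and belongs to a gene that overlaps YJEFN3 on the same strand.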

How the results depend on the processing

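Across the 25 alternatives chosen at the start and the 2 added later, no called change reversed, in the 52 changes of single genes followed one by one. These are a selection, 38 of them called at the start, so losses were more open to them than gains: of their 1398 values under the alternatives 1255 kept their side of the threshold, 134 lost their call and 9 gained one. With the gene-length trend removed per library, 48 of the 52 kept their side, 3 lost their call and 1 gained one. Calls among the 38 genes for fatty acids against control numbered 7 (2998 over all genes), with 20 without the filter on low counts (3060 over all genes). They numbered 14 with a replicate block (3108), 19 when fitted on the groups compared alone (3334) and 20 without formoterol replicate 4 and combination replicate 2. For formoterol against control they numbered 3 (1872 over all genes), with 1 under library totals (a fall, 2403 over all genes) and 12 without the filter (2251). They numbered 6 with a replicate block (1967) and 1 over protein-coding genes alone (1759). For the combination against fatty acids they numbered 0, with 1 under DESeq2, 1 over protein-coding genes alone and 1 without those 2 libraries, while calls over all genes numbered 507, with 880.0 without the filter, 795 under DESeq2, 275 on the groups alone and 655 without those 2 libraries. For the combination against formoterol they numbered 20, with 11 on the groups alone and 10 without those 2 libraries, when calls over all genes fell to 2134, against 3342. For the interaction they numbered 2, with 1 under library totals, 1 without the filter and 1 without those 2 libraries, and calls over all genes numbered 997, with 1523 without the filter. Leaving out 1 library at a time gave 3 to 14 calls among the 38 genes and 2276 to 3587 over all genes for fatty acids against control, 0 to 6 and 1002 to 2588 for formoterol against control, 0 to 1 and 302 to 590 for the combination against fatty acids, 10 to 22 and 2479 to 3399 for the combination against formoterol, 3 to 7 and 1975 to 2811 for the combination against control, and 1 to 2 and 444 to 1325 for the interaction. The cause of these moves was not tested. In 0 of 24 same-numbered pairs did the correlation of deviations from the group means, over all genes tested, pass 0.1 (−0.11 to 0.08). Among the 38 genes, however, replicate 2 was the lowest of its group more often than any other replicate in every group. It was so in 15 genes with fatty acids, 19 with formoterol, 26 in the combination and 27 in control. The sources used here do not say whether same-numbered libraries belong together, and the replicate block is given only here. The fit on the groups compared alone does not exist for the interaction. Low counts limit NDUFA7 (1 to 24 per library), NDUFV2 (6 to 30) and NDUFA13 (24 to 73).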
